A study of Saccharomyces cerevisiae with 28 samples.

Results

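The right part of *IGS2*, the intergenic spacer of the yeast rDNA repeat that lies between the replication origin and the 5S RNA gene, was examined base by base in *Saccharomyces cerevisiae*. Its members were chosen by position alone and are the 425 bases from 459251 to 459675 of chromosome XII (sacCer3), of the 2001 bases, 458000 to 460000, for which read depths were deposited. The stretch begins 154 bases to the right of the last base of the rDNA origin (rARS, annotated as ARS1200-1, 458991 to 459097) and ends at the base before the 5S gene (RDN5-1, 459676 to 459796, plus strand). The annotation places all of it in the spacer NTS2-1 (458433 to 459675), outside any gene, exon or UTR. It holds a window for nucleosome 4 (459251 to 459411), a window for nucleosome 5 (459421 to 459581), 9 bases between them, and 94 bases from 459582 to the 5S gene, called the 5S side here.

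Chromatin was probed in 2 ways. In MNase-seq, crosslinked chromatin was digested with micrococcal nuclease (MNase), and DNA covered by protein survived. In Mcm2-ChEC, MNase was fused to Mcm2, a subunit of the Mcm2-7 helicase, and calcium let it cut DNA where the helicase sat. Paired reads of 50 bases were aligned, and the number of reads over each base was deposited.

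MNase-seq was analysed in 6 libraries, 1 for each condition, so that no difference between them has a replicate check. The *sir2* strain (*sir2*Δ::KanMx) and the WT strain were each held in G1 by alpha factor and in G2 by nocodazole, and the *cdc6-1* strain was held in G1 at 37° (restrictive) or 23° (permissive). The *sir2* and WT strains share the replaced *hmlα* locus (*hmlα*::HygR), which the *cdc6-1* strain does not list. By the column names, G1 samples received 7.5 U of MNase and the G2 samples 3.75 U, and the effects of arrest and of digestion cannot be told apart. Mcm2-ChEC was analysed in 7 libraries of G1 cells with the *MCM2*-3xFLAG-MNase fusion. The strains with *FOB1* gave 1 *sir2* library (*sir2*Δ::LEU2) and 2 WT libraries, all with *hmlα*::HygR. A figure legend of the paper gives 30 s of calcium for them, and its methods list several times, 30 s and 1 min among them. The column names of the *sir2* library and of the WT library of larger depth share the tag 5m. That of the smaller WT library has the tag 1m and a further one. The tags 5m and 1m match calcium times in the methods, and the further tag is not explained. If the tags are calcium times, the WT libraries differ in calcium time, and they may differ in more. The strains with expanded rDNA, without a terminator, gave 2 *sir2* libraries and 2 *SIR2* libraries, 1 each after 30 s and after 1 min of calcium by their column names. All 4 came from another strain background, carry *fob1*Δ::HIS3 and the allele chromosome XII right armΔ::HygR, and descend from a selected isolate whose repeats had been re-expanded. Their *sir2* strain also has *hmlα*Δ::NAT, which the *SIR2* strain does not list, so both deletions cannot be told apart there. Nothing in the labels says whether libraries of 1 strain came from separate cultures, so their spread may be technical. The paper's methods describe calcium times collected from the same permeabilized cells.

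Sir2 is a histone deacetylase that silences transcription by RNA polymerase II in both spacers of the rDNA repeat. The Mcm2-7 helicase is loaded on origins in G1 by ORC, Cdc6 and Cdt1, and remains inactive until S phase. Nucleosomes and bound complexes both protect DNA from MNase, while naked DNA is lost, and MNase prefers to cut at A and T.

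The reference sequence (RefSeq, R64, plus strand, 5′ to 3′) is shown because the depth in these bases changed in sharp steps at the same bases of several libraries. In the window of nucleosome 4 (chrXII:459251-459411), the capitals mark the 50 bases from 459278 to 459327, between the largest upward and the largest downward step of the *sir2* Mcm2-ChEC library. In the window of nucleosome 5 (chrXII:459421-459581), they mark runs of 5 T, at 459486 to 459490 and at 459539 to 459543. In the stretch from the 5S side (chrXII:459593-459662), they mark the 50 bases from 459603 to 459652, where all 6 MNase-seq libraries stepped up and down. The first and the last of these marks were chosen after the depths were seen.
nucleosome 4 window: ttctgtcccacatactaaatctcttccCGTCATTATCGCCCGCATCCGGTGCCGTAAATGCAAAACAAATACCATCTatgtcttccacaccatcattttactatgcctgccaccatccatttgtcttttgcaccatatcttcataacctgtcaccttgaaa
nucleosome 5 window: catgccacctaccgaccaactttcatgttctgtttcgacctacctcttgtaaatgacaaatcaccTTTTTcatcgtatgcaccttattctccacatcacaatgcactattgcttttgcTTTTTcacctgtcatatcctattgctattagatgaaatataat
5S side: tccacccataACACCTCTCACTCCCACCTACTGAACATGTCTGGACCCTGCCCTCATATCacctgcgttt

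The sequence itself set these bases little apart. A and T made up 57.9% of the 425 bases, 57.1% of the nucleosome 4 window, 62.7% of the nucleosome 5 window and 52.1% of the 5S side, against 59.1% of the deposited interval and 61.5% of chromosome XII. The richest end was the last 50 bases of the nucleosome 5 window, with 72.0%. Runs of 5 A or T, searched as AAAAA on both strands, occurred 3 times, the third at 459582 to 459586, and 89.2% of 28393 genome windows of the same length hold one. Neither the Reb1 core TTACCCG (2.63% of genome windows) nor the ARS consensus sequence (2.69%) matched in the 425 bases on either strand, while the deposited interval holds 1 match to each. Every stretch of 50 bases here occurs 2 times in the reference, the second time in the next spacer copy (NTS2-2, 468388 to 468812), and cells hold many more copies. The depths are thus averages over all rDNA repeats of all cells, and a strong footprint in few repeats cannot be told apart from a weak one in many. The paper lists a different rDNA copy number for each strain used here, and the part of copy number was not tested.

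Depth was scaled to its own mean over the 2001 bases of the library, so that a relative depth of 1 is the average of the interval. Total depth corresponded to between 759788 and 2233018 reads per MNase-seq library, between 689392 and 5022993 per Mcm2-ChEC library and between 24177 and 85504 per library of sonicated DNA. Sonicated DNA (2 *sir2* and 2 *SIR2* libraries, in G1 and S phase) came from flow-sorted cells of other strains with expanded rDNA. These carry *fob1*Δ::HIS3 and chromosome XII right armΔ::HygR and list no *MCM2* fusion, and the *sir2* strain alone lists *hmlα*Δ::NAT. Sonicated DNA carries no footprints and shows how evenly these bases can be read. Its mean relative depth over the 425 bases was between 1.13 and 1.15, and its depth was nearly flat, with window means between 1.00 on the 5S side and 1.20 in the nucleosome 5 window. An even spread would place 21.2% of the depth in the 425 bases, and sonicated DNA had between 23.9% and 24.5% there. These libraries were mapped to a modified reference and lose nearly all depth beyond the 5S gene, so their shares are not directly comparable with those of other libraries. The Mcm2-ChEC libraries with *FOB1* also had little depth at the right end of the interval. Without that end their shares were 24.5% in *sir2* and 9.07% and 6.45% in WT, against 24.1%, 9.02% and 6.42% with it. Intervals given below are 95% intervals that cover counting error only. They count both reads of a pair as separate, so they may be too narrow. Most differences described are far wider than them.

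In MNase-seq the stretch was low in all 6 libraries, and its 2 nucleosome windows were lower than the 5S side in every one. The mean relative depth over the 425 bases was 0.740 in *sir2* and 0.443 in WT cells in G1, 0.647 in *sir2* and 0.505 in WT cells in G2, and 0.552 at 37° and 0.420 at 23° in *cdc6-1* cells. The lowest base was 459335 in 4 of the 6 libraries, in the centre of the nucleosome 4 window, where WT cells in G1 reached a relative depth of 0.107. The highest base lay on the 5S side in every MNase-seq library, at 459603 in both *sir2* libraries and between 459629 and 459646 in the others. Of the 3 window means, only the 5S side of *sir2* cells exceeded the average of the interval, with 1.42 in G1 and 1.18 in G2.

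The depth inside the windows fitted the label nucleosome only in part. Reads of 50 bases from both ends of a fragment the size of a nucleosome would pile up at both ends of a window. In the nucleosome 4 window of WT cells in G1 the first 50 bases had a mean relative depth of 0.622, the centre 0.271 and the last 50 bases 0.266, so that 1 end stood out. In the nucleosome 5 window of the same library the first 50 bases had 0.325, the centre 0.258 and the last 50 bases 0.390, a shallow dip. In *sir2* cells in G1 the same parts of that window had 0.360, 0.516 and 0.859, each higher than the one to its left. Fragment sizes are not part of the deposited depths, so reads of nucleosomes and of smaller complexes were counted together, and the windows are named for their positions.

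**Figure D1:**
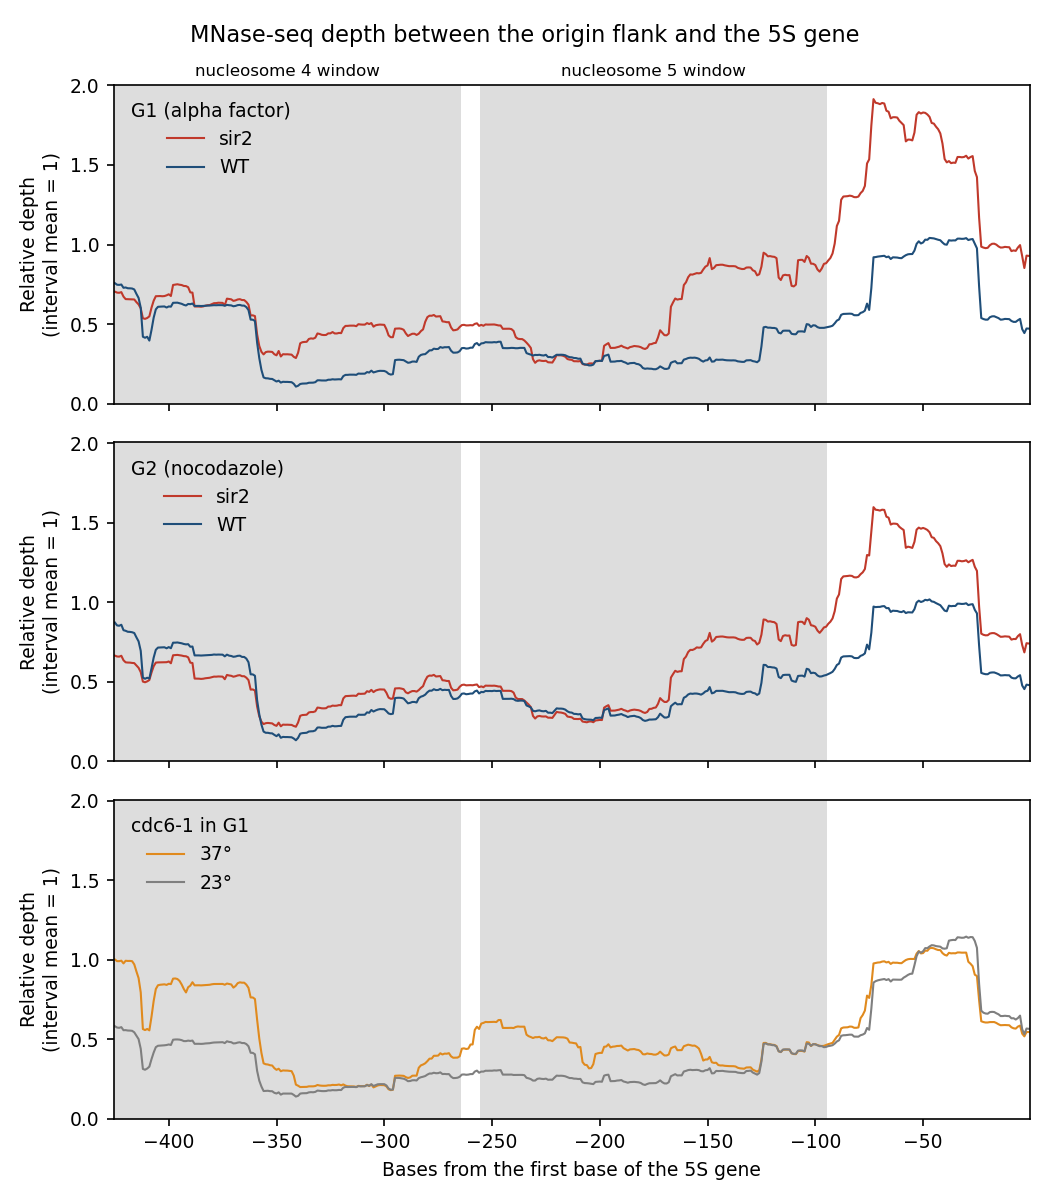
Relative depth (1 is the mean of the deposited interval) of the 6 MNase-seq libraries, against the distance in bases from the first base of the 5S gene. Grey bands are the nucleosome 4 and 5 windows, and each line is 1 library. The *sir2* lines lie above WT from the right end of the nucleosome 5 window to the 5S gene, reaching 1.91 in G1, and *cdc6-1* at 37° lies above 23° over the left ends of both windows.

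The first question was how the relative depth of these bases differed between *sir2* and WT cells. In G1 the relative depth in *sir2* cells was 1.67 times that in WT cells over the whole stretch (interval 1.66 to 1.68). Across the whole deposited interval the ratio at single bases ran from 0.401 at 458984 to 4.97 at 459916. The nucleosome 4 window had a mean relative depth of 0.525 in *sir2* and 0.379 in WT cells (ratio 1.39), the nucleosome 5 window 0.574 and 0.320 (1.79), and the 5S side 1.42 and 0.773 (1.84). The difference was uneven within both windows. At the first 50 bases of the nucleosome 4 window *sir2* and WT cells had 0.657 and 0.622 (1.06), whereas its last 50 bases had 0.485 and 0.266 (1.83). At the first 50 bases of the nucleosome 5 window they had 0.360 and 0.325 (1.11), whereas its last 50 bases had 0.859 and 0.390 (2.20).

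Counted by base, 250 of the 425 (58.8%) were at least 1.5-fold higher in *sir2* than in WT cells in G1, against 32.4% of all deposited bases, and 0 were 1.5-fold lower, against 5.45%. Neighbouring bases share reads, so that these counts are not of independent sites. The longest run of higher bases spanned 142 bases, from 459496 to 459637, across the right end of the nucleosome 5 window and onto the 5S side. A shorter run of 73 bases, from 459319 to 459391, lay across the right part of the centre and the right end of the nucleosome 4 window. The largest ratio, 3.22, was at 459543, the last T of the second run in capitals above.

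In G2 the same comparison gave smaller ratios. The whole stretch was 1.28 times higher in *sir2* than in WT cells (interval 1.28 to 1.29). The nucleosome 4 window hardly differed, with mean relative depths of 0.461 in *sir2* and 0.456 in WT cells (ratio 1.01), and its ends went opposite ways. Its first 50 bases were lower in *sir2* (0.592 against 0.712 in WT, ratio 0.832), and its last 50 bases were higher (0.460 against 0.371 in WT, ratio 1.24). The nucleosome 5 window had 0.533 in *sir2* and 0.391 in WT cells (1.36), and the 5S side 1.18 and 0.789 (1.49). In both arrests the ratio of means was largest on the 5S side and smallest in the nucleosome 4 window. The nucleosome 5 window exceeded the 5S side in G1 with the lowest depth subtracted (2.12 against 1.98), as medians (1.71 against 1.66) and with windows moved 20 bases right (1.95 against 1.82), so that the order of these 2 depends on the setting. Of the 425 bases 126 (29.6%) were at least 1.5-fold higher, against 25% of all deposited bases, a share near that background, and 0 were 1.5-fold lower, against 4.8%. The 3 longest runs of higher bases, from 459329 to 459357, 459509 to 459551 and 459568 to 459617, lay within runs found in G1. Across the 425 bases the log2 ratio of *sir2* to WT in G1 and that in G2, which share no library, had a Pearson correlation of 0.93 and a Spearman correlation of 0.94, as a description over bases that share reads.

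Between arrests, the values of *sir2* and WT cells went in opposite directions, a difference that 1 library per condition leaves untested. In *sir2* cells the stretch was higher in G1 than in G2, with 0.740 and 0.647 (ratio 1.14, interval 1.14 to 1.15). In WT cells it was lower in G1 than in G2, with 0.443 and 0.505 (0.878, interval 0.873 to 0.884). With depth scaled to the footprint of the transcription factor Reb1 (458591 to 458721), the ratio was 1.22 in *sir2* and 0.974 in WT cells. The WT difference was then small. The 5S side of WT cells barely took part, with 0.773 in G1 and 0.789 in G2 (0.980, or 1.09 under Reb1 scaling). No base of the stretch reached 1.5-fold in *sir2* cells, neither higher (0 bases, against 4% of all deposited bases) nor lower (0 bases, against 0%). In WT cells 0 bases were 1.5-fold higher, against 5.25% of all deposited bases, and 53 (12.5%) were 1.5-fold lower, against 7.55%. These lay in 2 runs, from 459357 to 459380 in the nucleosome 4 window and from 459522 to 459550 in the nucleosome 5 window. The amount of MNase differed between the arrests, and its part in these values was not tested.

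The *cdc6-1* mutation is temperature sensitive, so that at 37° cells cannot load Mcm2-7, and the comparison asks how these bases look without helicase loading. The stretch had a mean relative depth of 0.552 at 37° and 0.420 at 23° (ratio 1.31, interval 1.30 to 1.33). In contrast to the *sir2* comparison, the difference lay on the left. The nucleosome 4 window had 0.509 at 37° and 0.319 at 23° (1.59), the nucleosome 5 window 0.447 and 0.300 (1.49), and the 5S side 0.812 and 0.808 (1.00). Within the nucleosome 5 window the first 50 bases had 0.529 at 37° and 0.267 at 23° (1.98), and the last 50 bases 0.399 and 0.387 (1.03).

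By base, 191 of 425 (44.9%) were at least 1.5-fold higher at 37° than at 23°, against 20.8% of all deposited bases, and 0 were 1.5-fold lower, against 7.85%. They formed 3 runs, from 459251 to 459335, from 459412 to 459470 and from 459473 to 459519, and none reached the 5S side. The log2 ratio of 37° to 23° ran opposite to that of *sir2* to WT in G1, with a Pearson correlation of -0.59 and a Spearman correlation of -0.53 over the 425 bases, which is a description. Temperature and the time in alpha factor differed along with Cdc6 activity between the 2 libraries, and these cannot be told apart.

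**Figure D2:**
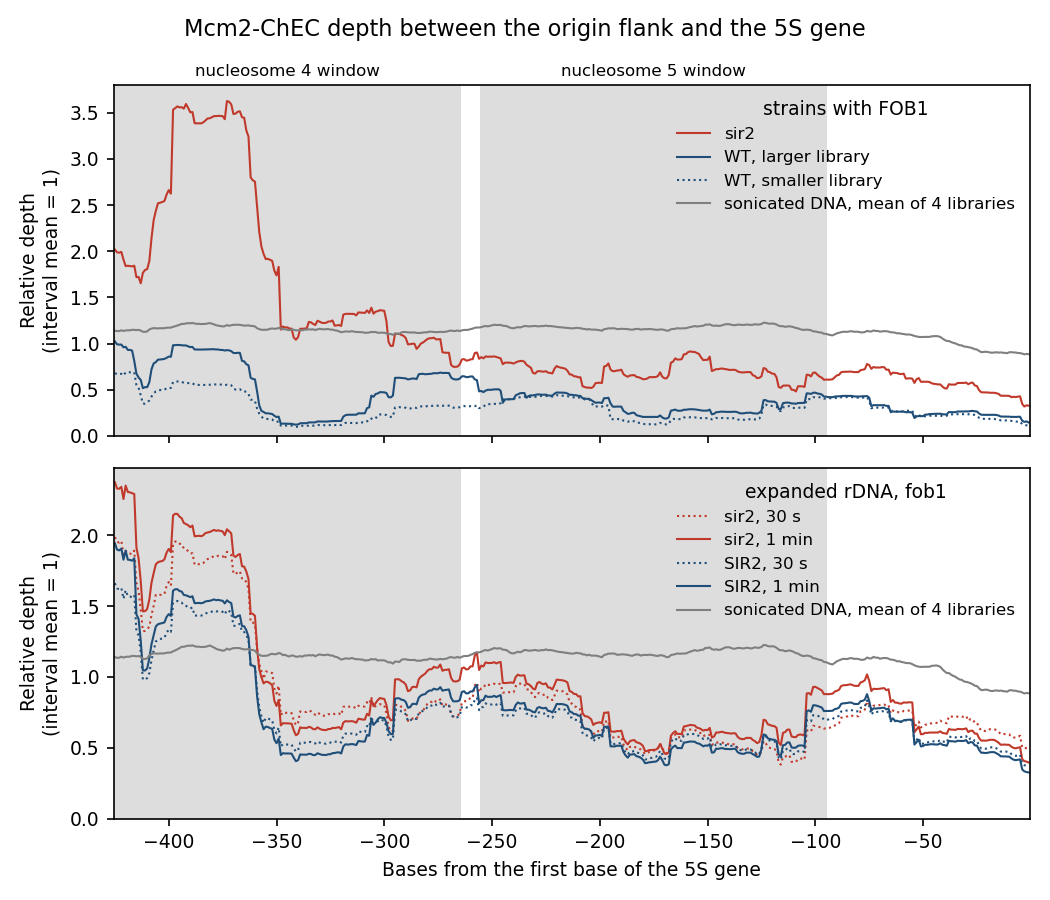
Relative depth of the 7 Mcm2-ChEC libraries against the distance in bases from the first base of the 5S gene, strains with *FOB1* above and strains with expanded rDNA below, each line 1 library. The grey line, the same in both panels, is the mean of 4 libraries of sonicated DNA from strains with expanded rDNA. The *sir2* line of the upper panel reaches 3.63 in the nucleosome 4 window, where the WT lines stay at or below 1.02.

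Mcm2-ChEC had the opposite layout. The nucleosome 4 window was the highest of the 3 windows in all 7 libraries, and the 5S side or the nucleosome 5 window the lowest. Mean relative depth over the 425 bases was 1.13 in the *sir2* library, against 0.425 and 0.302 in the larger and the smaller WT library (0.364 ± 0.087, SD, n = 2). That placed 24.1% of the depth in these bases in *sir2* (Wilson interval 24.0% to 24.2%), against 9.02% and 6.42% in WT.

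In the nucleosome 4 window the *sir2* library had a mean relative depth of 1.91, against 0.573 and 0.341 in WT. The centre of the window stood out most, with 1.90 in *sir2*, against 0.352 and 0.229 in WT, ratios of 5.40 and 8.33. Its first 50 bases had 2.73 in *sir2*, against 0.874 and 0.553 in WT. The highest base of the *sir2* library in the stretch was 459303, with 3.63, whereas both WT libraries peaked at the left edge, at 459251 with 1.02 and at 459258 with 0.689. Taking the mean of the WT libraries on the log2 scale, the largest ratio at any base was 10.1, at 459327, the last base of the capitals in the nucleosome 4 sequence.

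The 2 windows farther right were lower in *sir2* than the nucleosome 4 window, and still above WT. The nucleosome 5 window had 0.700 in *sir2*, against 0.348 and 0.287 in WT, and the 5S side 0.584, against 0.284 and 0.262. The *sir2* library lay above both WT libraries at 425 of 425 bases, against 48.3% of all deposited bases, and below both at 0 bases, against 50.6%. With 1 library against 2, either order is common across the interval, so that the count is read against these shares. By its column name the *sir2* library shares the tag 5m with the larger WT library. The smaller WT library gave the larger ratio over the whole stretch (3.75, against 2.67 with the larger), and the part of the tagged differences in this was not tested. With depth scaled to the bases of the Reb1 footprint both ratios were higher, 5.71 with the smaller and 4.65 with the larger WT library. They were also higher in the nucleosome 4 window (8.52 and 5.79). On the 5S side the order of the WT libraries then turned (3.39 and 3.58). The paper scales to the Reb1 footprint in MNase-seq only. In Mcm2-ChEC depth at these bases comes from cutting by the Mcm2 fusion and may itself differ between genotypes, so it is no independent reference.

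The strains with expanded rDNA showed the same direction with smaller differences. Mean relative depth over the 425 bases was 0.861 after 30 s and 0.943 after 1 min in *sir2*, against 0.739 and 0.758 in *SIR2* at the same times. The means were 0.902 ± 0.058 in *sir2* and 0.748 ± 0.014 in *SIR2* (SD, n = 2 each), and the groups did not overlap. Each SD is over a 30 s and a 1 min library, so it includes calcium time and is no spread between cultures. At matched calcium times the ratio was 1.17 at 30 s (interval 1.16 to 1.17) and 1.24 at 1 min (interval 1.24 to 1.25). It was 1.43 and 1.57 with depth scaled to the bases of the Reb1 footprint, with the same limit as above. The nucleosome 4 window had 1.18 and 1.28 in *sir2*, against 0.952 and 0.993 in *SIR2*.

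Further right these strains differed less. The nucleosome 5 window had 0.642 and 0.729 in *sir2*, against 0.597 and 0.604 in *SIR2*, and the 5S side 0.688 and 0.710, against 0.610 and 0.607. The last 50 bases of the nucleosome 5 window had the opposite direction at 30 s only, with 0.508 in *sir2* and 0.540 in *SIR2* after 30 s (ratio 0.940), and 0.658 and 0.556 after 1 min (1.18). The *sir2* libraries lay above both *SIR2* libraries at 332 of 425 bases (78.1%), against 31.5% of all deposited bases, and below both at 0 bases, against 20.7%. The largest ratio at any base, 1.49, was at 459320, in the centre of the nucleosome 4 window, as in the strains with *FOB1*.

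The *SIR2* level itself differed between the backgrounds. In the nucleosome 4 window *SIR2* cells with expanded rDNA had 0.972 ± 0.029 and WT cells with *FOB1* 0.457 ± 0.164 (SD, n = 2 each). Strain background, *FOB1*, the *hmlα* locus, the chromosome XII right arm allele and the mapping reference all differ between these strains. So do the re-expansion of the repeats and the rDNA copy number that the paper lists. Calcium time may differ too, both between the backgrounds and between the 2 WT libraries, whose column names carry different tags. These WT libraries had 0.573 and 0.341, so their SD may include such a difference. The SD of the *SIR2* libraries with expanded rDNA includes their difference in calcium time. The parts of all these differences cannot be told apart.

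An exact two-sided permutation test joined both backgrounds, with genotype labels exchanged only within a background. It treats libraries as separate units, although those of 1 strain with expanded rDNA differ in calcium time and may come from 1 culture. Averaged over the 2 backgrounds, log2 relative depth in *sir2* exceeded that in *SIR2* by 0.97 over the whole stretch, a fold of 1.95 (3.17 with *FOB1*, 1.20 with expanded rDNA). The difference was 1.23 in the nucleosome 4 window (4.32-fold and 1.27-fold), 0.67 in the nucleosome 5 window (2.22-fold and 1.14-fold) and 0.65 on the 5S side (2.14-fold and 1.15-fold). The test allows 18 permutations, and each of the 4 windows gave p = 0.0556, the smallest p it can give, and an adjusted p of 0.0556 over the 4 windows (Benjamini-Hochberg). No window therefore passed 0.05, which this design cannot reach. The joint values rest largely on the 1 *sir2* library with *FOB1*, without which the log2 difference was 0.27 over the whole stretch, 0.34 in the nucleosome 4 window, 0.19 in the nucleosome 5 window and 0.20 on the 5S side. Depth was also scaled to the bases of the Reb1 footprint in place of the interval, which are no independent reference in Mcm2-ChEC. The log2 difference was then 1.47 over the whole stretch and 1.73 in the nucleosome 4 window.

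**Figure D3:**
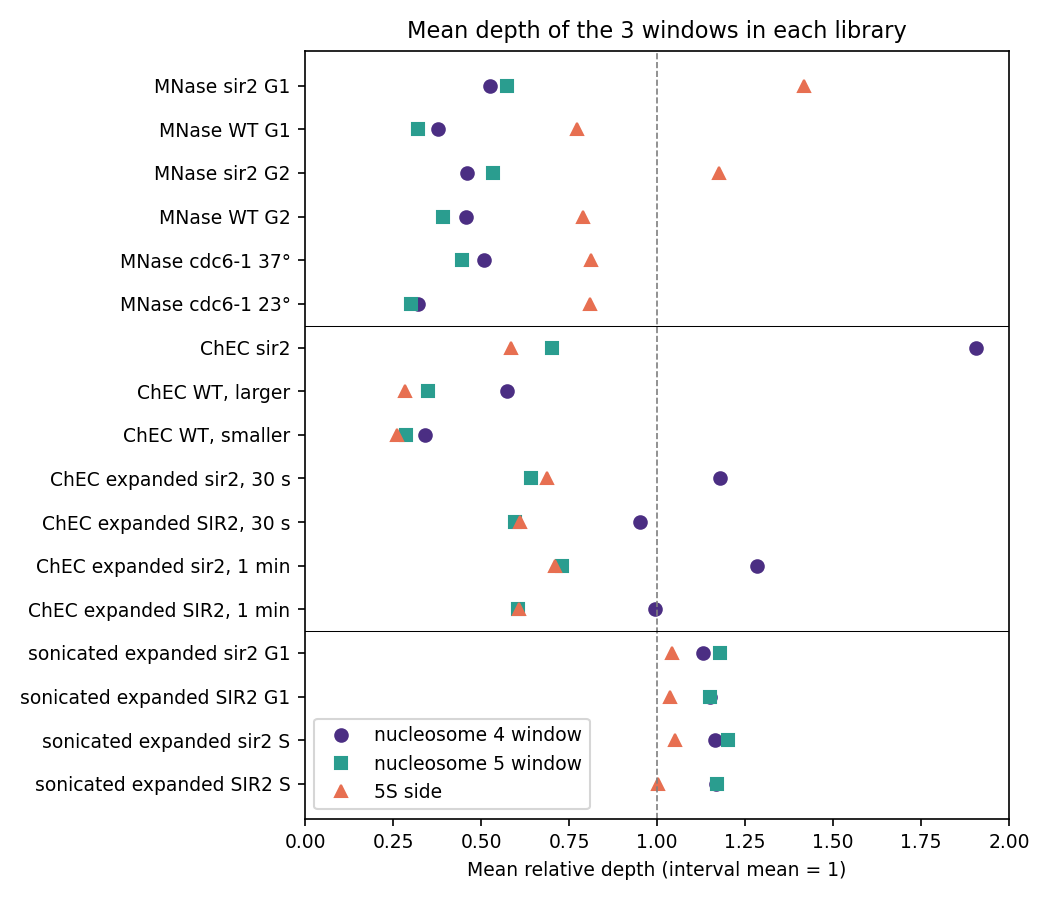
Mean relative depth of the nucleosome 4 window (circles), the nucleosome 5 window (squares) and the 5S side (triangles) in each of 17 libraries, 1 library per row. The dashed line is the mean of the interval. Triangles lie farthest right in the 6 MNase-seq libraries (0.773 to 1.42), circles in the 7 Mcm2-ChEC libraries, and the sonicated libraries show little spread between windows.

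The window with the largest ratio of *sir2* to WT differed between the assays. In MNase-seq of G1 cells the ratio of *sir2* to WT was 1.39 in the nucleosome 4 window and 1.84 on the 5S side. In Mcm2-ChEC with *FOB1* the ratio to the larger WT library was 3.33 in the nucleosome 4 window and 2.06 on the 5S side. At finer scale, both ratios had a hump over the centre of the nucleosome 4 window and a hump over the centre and right end of the nucleosome 5 window. The correlation of the 2 log2 ratio profiles over 425 bases was modest (Pearson 0.38, Spearman 0.33). The ratio profile of Mcm2-ChEC with *FOB1* followed that of expanded rDNA more closely, with a Pearson correlation of 0.69 at 30 s and 0.84 at 1 min. These correlations share base composition and neighbouring reads, and no p is given for them.

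**Figure D4:**
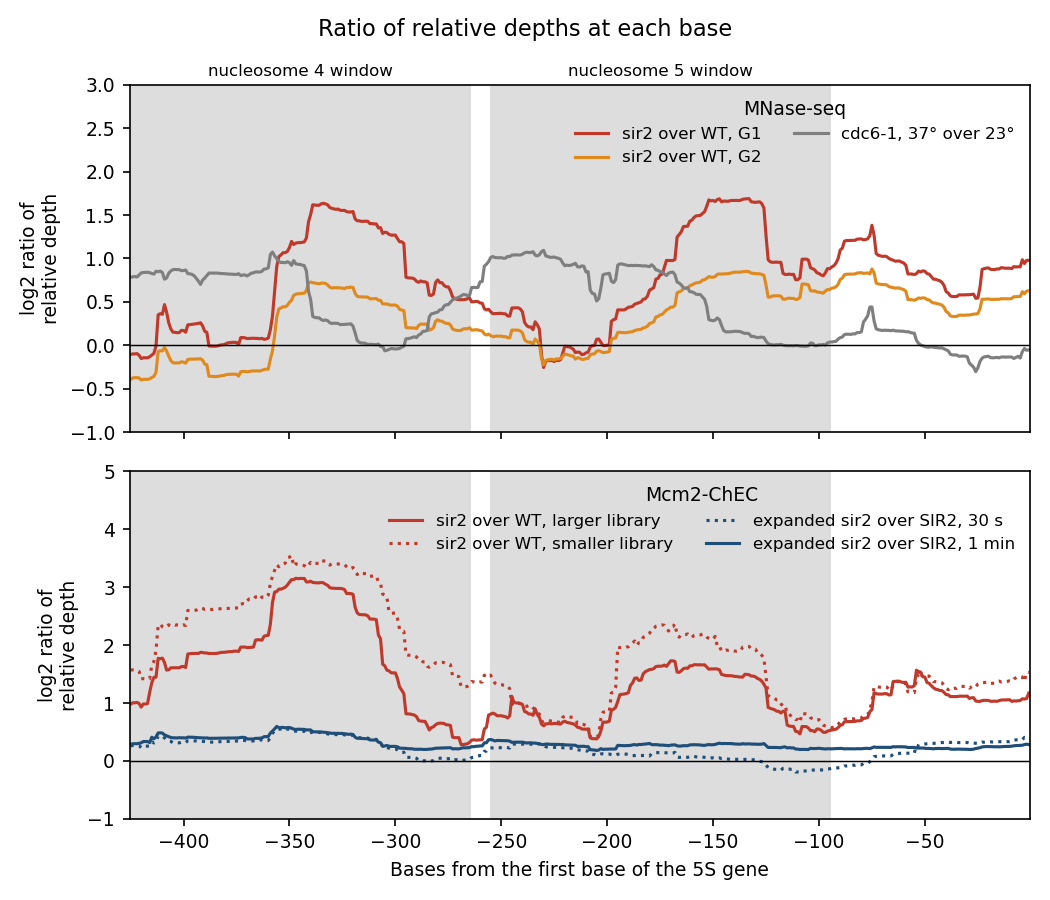
Log2 ratio of relative depth at each base for MNase-seq (above) and Mcm2-ChEC (below), against the distance in bases from the first base of the 5S gene; 0 means no difference. In MNase-seq of G1 cells the *sir2* ratio peaks in the nucleosome 4 window (3.11), in the nucleosome 5 window (3.22) and on the 5S side (2.61), and in G2 it is highest on the 5S side (1.84). It peaks in Mcm2-ChEC with *FOB1* in the centre of the nucleosome 4 window (highest ratio 8.91 against the larger and 11.7 against the smaller WT library). Values in brackets are ratios before the log2 was taken.

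Depth changed in steps, where many reads start or end at 1 base. In the *sir2* Mcm2-ChEC library the largest step up was 0.908 of relative depth into base 459278, and the largest step down was 0.680 after base 459327, so that the pair bounds exactly 1 read length of 50 bases, the capitals in the nucleosome 4 sequence. The step up into the same base was 0.125 and 0.064 in the larger and the smaller WT library. In expanded rDNA it was 0.295 and 0.259 in *sir2* after 30 s and 1 min, against 0.205 and 0.179 in *SIR2*.

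Other steps were common to genotypes. Base 459381 was among the 3 largest steps up in 6 of 7 Mcm2-ChEC libraries, and 459278 and 459572 in 5 of 7 each. The fall after 459260 was among the 3 largest steps down in 6 of 7. In MNase-seq the step up into 459603 was among the 3 largest in 6 of 6 libraries, as were the steps down after 459651 and 459652, again about a read length later. Into 459603 the step was 0.165 in *sir2* and 0.193 in WT cells in G1, and 0.155 and 0.164 in G2. Into the base before it, 459602, the step was 0.213 in *sir2* and 0.138 in WT cells in G1, and 0.149 and 0.105 in G2. A step into 459568 was 0.153 in *sir2* and 0.017 in WT cells in G1, and 0.143 and 0.037 in G2. Another step that was larger in *sir2* than in WT MNase-seq lay at 459509, with 0.168 in *sir2* and 0.034 in WT cells in G1, and 0.140 and 0.065 in G2. That base begins the second of the runs found higher in *sir2* in G2.

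Across the 425 bases the shape of the profiles was shared within an assay more than between assays. Pearson correlations of relative depth were 0.98 between WT in G1 and G2, 0.99 between *sir2* in G1 and G2, and 0.84 between *sir2* and WT in G1. In Mcm2-ChEC they were 0.88 between the WT libraries, 0.74 between *sir2* and the larger WT library, and 0.90 and 0.85 between *sir2* with *FOB1* and *sir2* with expanded rDNA after 30 s and 1 min. The shape did not sort by genotype, since *sir2* with *FOB1* had 0.85 and 0.79 with *SIR2* with expanded rDNA at these times, and the larger WT library 0.85 and 0.93 with *sir2* with expanded rDNA. Between MNase-seq and Mcm2-ChEC of *sir2* cells in G1 the correlation was -0.22, and of WT cells in G1 0.21 with the larger library. The bases of highest Mcm2-ChEC depth in *sir2* cells, around 459303, were thus not those of highest MNase-seq depth, around 459603.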

How the data were processed

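Paired reads of 50 bases were aligned by the authors with gsnap, and they deposited a coverage signal, the read depth at each of 2001 bases, with no scaling and no selection by fragment size. Their processing notes name GSNAP, Picard and bedtools on sacCer3, the same assembly as the R64 reference used here. Versions and settings are not given in the sources used here. Reads of expanded rDNA strains were mapped to a modified reference, and their depth is nearly lost at the right end of the interval, beyond the 5S gene.

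Of 28 columns, 17 were used (6 MNase-seq, 7 Mcm2-ChEC and 4 sonicated). Columns were matched to conditions by labels and strain numbers. The 11 others, of *fob1* strains, strains with a terminator, or an unlisted strain number, were not used here. The WT and expanded Mcm2-ChEC columns could be matched to a group and not to 1 of its samples, and the 2 WT columns are told apart by total depth.

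Depth was divided by its own mean over the interval. Summed depth over 50 was taken as reads, for 95% Wilson intervals of shares and log-normal 95% intervals of ratios. A base was counted at a ratio of 1.5 or more, or, with several libraries, where groups did not overlap. Mcm2-ChEC windows were compared by an exact two-sided permutation test of log2 relative depth, with Benjamini-Hochberg adjustment over 4 windows and a threshold of 0.05. Libraries of 1 strain differed far beyond counting noise and were kept as separate libraries. The named bases are the highest and lowest of each library, ends of runs, and the 3 largest steps.

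Alternatives were scaling to the Reb1 footprint or to the bases outside the stretch, subtraction of the lowest depth, medians, windows moved by 20 bases, leaving out each Mcm2-ChEC library and a replicate block by calcium time. Scaling without the right end, and the fit without the only *sir2* library with *FOB1*, were added after seeing the data. Members, windows, lists and tests were chosen with earlier results of these data known. Scripts were tested on simulated data. The tools were scipy 1.17.1, statsmodels 0.14.6, pandas 2.3.3, numpy 2.4.6 and matplotlib 3.10.9 under Python 3.11.15.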

Additional observations from a re-analysis of the deposited data

Results flagged for a closer look

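The G1 to G2 ratio of MNase-seq depth lay on opposite sides of 1 in *sir2* and WT cells over the whole stretch and in each of its 3 windows. The G1 to G2 ratio was 1.14 in *sir2* and 0.878 in WT cells over the 425 bases, so that the ratio of the ratios was 1.30. In the nucleosome 4 window it was 1.37 (1.14 in *sir2* and 0.830 in WT cells), in the nucleosome 5 window 1.32 (1.08 and 0.818) and on the 5S side 1.23 (1.21 and 0.980). Under scaling to the Reb1 footprint the whole stretch gave 1.22 in *sir2* and 0.974 in WT cells, so that the WT ratio came close to 1. The 5S side gave 1.28 in *sir2* and 1.09 in WT cells under this scaling, so that the opposite directions were lost there. With 1 library per condition the difference was not tested. Both genotypes received 7.5 U of MNase in G1 and 3.75 U in G2, so that arrest and the amount of MNase cannot be told apart.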

How the results depend on the processing

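No ratio or difference over the whole 425 bases changed direction under any alternative run. The MNase-seq ratios moved beyond counting error under nearly every one. For *sir2* over WT in G1 (1.67) the ratio was 1.80 when scaled to bases outside the stretch, 1.85 with the lowest depth subtracted, 1.78 as medians, 1.60 and 1.74 with windows moved left and right, and 1.75 scaled without the right end. For *sir2* over WT in G2 (1.28) it was 1.34 under Reb1 scaling, then 1.33, 1.37, 1.21, 1.23, 1.33 and 1.36 in the same order of settings. For G1 over G2 in *sir2* (1.14) these 7 settings gave 1.22, 1.17, 1.17, 1.17, 1.14, 1.16 and 1.12, and in WT (0.878) they gave 0.974, 0.866, 0.864, 0.794, 0.873, 0.884 and 0.867. For *cdc6-1* at 37° over 23° (1.31) the first 6 gave 1.30, 1.36, 1.45, 1.57, 1.37 and 1.26. The cause of these shifts was not tested.

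In Mcm2-ChEC no alternative passed 0.05 by the exact permutation test, and the design could not. Leaving out each of the 7 libraries in turn gave log2 differences (*sir2* minus *SIR2*) of 0.267 to 1.09 over the whole stretch, 0.340 to 1.41 in the nucleosome 4 window, 0.188 to 0.738 in the nucleosome 5 window and 0.20 to 0.678 on the 5S side. The lowest value of each range is that without the only *sir2* library with *FOB1*, which leaves expanded rDNA alone (exact permutation p = 0.333, the smallest it allows), and was added after seeing the data. Medians lowered the nucleosome 4 difference to 0.892 (exact permutation p = 0.111, which is not the smallest the test allows). With a replicate block by calcium time in expanded rDNA the difference over the whole stretch was 0.97 (exact permutation p = 0.0833, the smallest it allows). Counting error is small at these depths. With at most 2 libraries per strain, which may come from 1 culture, the spread between cultures was not measured.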
